A study of Homo sapiens with 4 samples.

Results

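The 37 genes described here encode the working parts of the lysosome and the transcription factors that set its gene expression. They were listed by symbol and role, with earlier results of these data known, and all 37 were found among the 23228 genes of the deposited tables. Shares set beside those of all genes below thus do not come from a list chosen blind to the data. By role they fall into 10 lysosomal membrane proteins, 9 proteases, 8 glycosidases and other luminal proteins, 5 proton pump genes, and 5 genes for MiT/TFE transcription factors and their regulators. Hydrolases of sphingolipids were left out. The lysosome is the acidic compartment in which cells break down protein, glycans and lipids. A proton pump, the V-ATPase, acidifies its lumen, heavily glycosylated membrane proteins line it, and cathepsins and glycosidases digest its cargo. TFEB, TFE3 and MITF bind E-box elements in the promoters of many of these genes (the CLEAR element) and are held in the cytoplasm when mTORC1, docked on the lysosome by Rag GTPases, senses ample nutrients.

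All libraries came from A673, an established Ewing sarcoma cell line, and every culture was transfected with siRNA through RNAiMAX and harvested 48 h later. The 4 libraries were siSMPD1 (siRNA to SMPD1, which encodes acid sphingomyelinase, itself a lysosomal enzyme), its scrambled-siRNA library control_SMPD1, siGPR64 (siRNA to GPR64, an adhesion G protein-coupled receptor), and its scrambled-siRNA library control_GPR64. Each group is 1 library, so no difference below has a replicate check and no p-value is given for a pair. Every interval covers counting error only and holds nothing of the spread between cultures. The RNA is bulk, so fewer cells of a type and less RNA per cell cannot be told apart.

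Gene counts totalled 18849264 in siSMPD1 and 19614913 in control_SMPD1, but 2534861 in siGPR64 and 2882854 in control_GPR64. A single read was thus worth 0.053 and 0.0520 CPM (read counts relative to library size, with TMM scaling) in the SMPD1 pair and 0.392 and 0.343 CPM in the GPR64 pair. Each knockdown library held less of its target than its own control, at 91.7 against 414 CPM for SMPD1 and 50.1 against 109 CPM for GPR64. SMPD1 stood lower still in control_GPR64, at 52.8 CPM, so for this target the direction depends on the control chosen. The 7 Ewing sarcoma markers summed to 972 to 1006 CPM per library, with CD99 listed at 0 in all 4. Single markers varied more than the sum: CCK had 1 count in siGPR64 and 15 in control_GPR64. Of the 6 measured markers, 3 had intervals below equality in siGPR64 over control_GPR64 and 2 above it. Although the labels give muscle as the tissue, the 6 skeletal muscle markers summed to at most 0.208 CPM, and MYOD1, MYOG and MYF5 had 0 counts in every library. The 8 macrophage and dendritic cell markers, which would come with cathepsin S or LAMP3 from immune cells, summed to 0.685 to 0.989 CPM, with TYROBP and MARCO at 0 counts in every library.

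E-boxes were frequent in the promoters of these genes, and the sequences are shown because TFEB and TFE3 bind this element. As the CLEAR element is known from promoters of many of these genes, their high share is not an independent finding. RefSeq promoter windows of the GRCh38.p14 build run from 250 bases before to 50 bases after a transcription start. Windows were read by symbol for 25 of the 37 genes. For these genes windows on 1 chromosome were left out, a filter not applied to the counts over all genes. The core CACGTG, which reads the same on both strands, occurred in a window of 10 of the 25 genes (40%), against 8.77% of all 27305 genes with a window. The extended form TCACGTGA, which contains the core, occurred in 6 of the 25 (24%), against 1.18% of all genes. Counted by window, the core was in 7.26% and the extended form in 0.98% of all 35116 windows of this length. LAMP1 held 6 cores, more than any of the other 24 genes, of which 4 lay 192 to 142 bases upstream and 2 of the extended form at 28 bases and 1 base upstream. Its window is chr13:113296989-113297288 (plus strand), printed with the cores and the extended forms in capitals.
LAMP1: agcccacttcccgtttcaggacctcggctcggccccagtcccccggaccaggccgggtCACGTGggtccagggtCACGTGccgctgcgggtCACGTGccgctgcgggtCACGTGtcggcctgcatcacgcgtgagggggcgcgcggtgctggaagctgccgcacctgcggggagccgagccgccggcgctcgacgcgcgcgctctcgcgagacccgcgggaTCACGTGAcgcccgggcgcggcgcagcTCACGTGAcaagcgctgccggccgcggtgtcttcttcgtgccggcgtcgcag
The other 5 genes with the extended form, and CTSD with the core alone, are shown over 40 bases around a site, on the strand of the gene. MCOLN1 lies at chr19:7522566-7522605, GAA at chr17:80101488-80101527, CTSA at chr20:45891293-45891332, ATP6V0D1 at chr16:67481194-67481233, CLN3 at chr16:28492053-28492092 and CTSD at chr11:1763952-1763991, with the last 3 on the minus strand.
MCOLN1: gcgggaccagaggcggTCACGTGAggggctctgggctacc
GAA: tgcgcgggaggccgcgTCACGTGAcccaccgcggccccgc
CTSA: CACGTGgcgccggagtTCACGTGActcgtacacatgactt
ATP6V0D1: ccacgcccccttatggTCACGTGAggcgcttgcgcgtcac
CLN3: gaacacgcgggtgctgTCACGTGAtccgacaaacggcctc
CTSD: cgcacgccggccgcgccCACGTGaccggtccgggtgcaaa
CLCN7, CTSF and CD63 also held the core alone. A match describes letters in a window and does not show that a factor binds there.

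**Figure D1:**
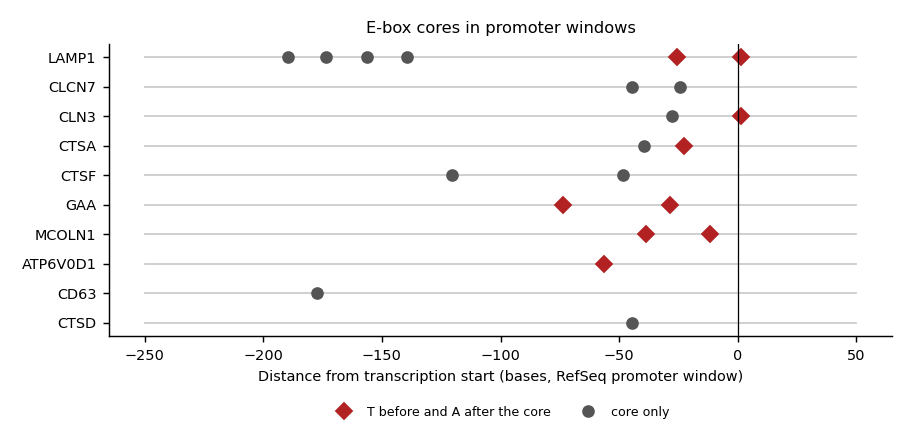
Position of each E-box core (CACGTG) in the RefSeq promoter window of the 10 genes that hold one, as distance in bases from the transcription start; diamonds mark cores in the extended form and circles the core alone. Where a gene has several windows, 1 window that holds the core is drawn. LAMP1 has 6 cores, and outside LAMP1 the cores farthest from the start lie 180 bases upstream in CD63 and 123 in CTSF.

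The first question was how these genes differed when SMPD1, a gene of the same organelle, was silenced. The siSMPD1 library stood modestly higher for most of them: 25 of the 36 measured genes had a log2 ratio above 0 against control_SMPD1 (69.4%), where 49.5% of all measured genes did. Measured means a mean of at least 1 CPM over both libraries of a pair, which left out MITF here. The median log2 ratio of the 36 was 0.14, against -0.00 over all 12749 measured genes. Large differences were few. The rule of size asks for a 2-fold ratio and a 95% counting interval clear of equality. LAMP3 alone passed it and was lower (2.78%, against 1.11% of all genes), and none was higher, against 2.49% of all genes. At under 1 CPM in siSMPD1, LAMP3 counted as measured through control_SMPD1 alone, so it had to be lower. With 1.5-fold as the limit, 4 genes were higher (LAMP1, LAMP2, CTSF and CTSZ; 11.1%, against 7.26% of all genes) and LAMP3 lower (2.78%, against 4.78%). Whatever the size, the interval lay above equality for 18 genes and below it for 5, where 28.1% and 28.8% of all genes did so. Set against control_GPR64, siSMPD1 had 10 genes 2-fold higher and 4 lower by the rule (10.5% and 8.02% of all genes). Past 1.5-fold in either direction were 19 of 37 (35.1% of all genes). Among these, LAMP3, CTSH and MITF were under 1 CPM in siSMPD1 and CTSZ was under 1 CPM in control_GPR64. They counted as measured through 1 library alone, so LAMP3, CTSH and MITF had to be lower and CTSZ higher.

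**Figure D2:**
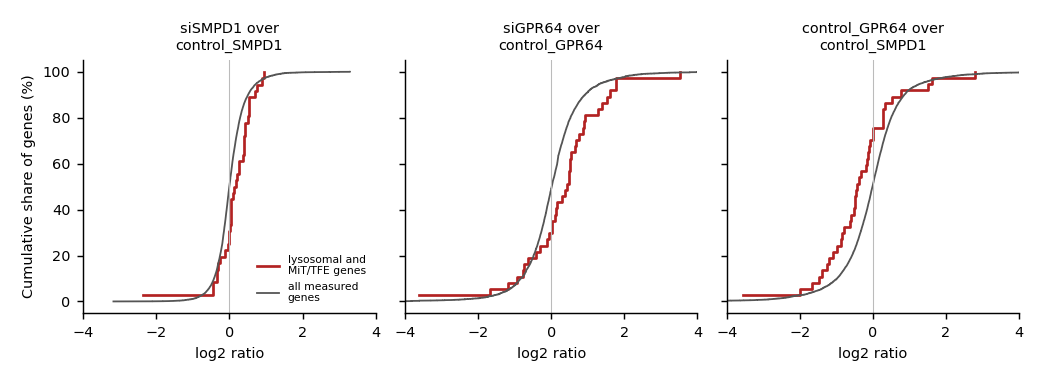
Cumulative share (%) of genes at or below each log2 ratio, for the lysosomal and MiT/TFE genes (red) and for all measured genes (grey), in 3 comparisons of 1 library each; 1 panel a comparison, cut at -4 and 4. The red line lies right of the grey one over most of its length in both knockdown comparisons (medians 0.14 and 0.43) and left of it between the controls (median -0.43).

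Among the 10 membrane genes, the LAMP family had the largest ratios in siSMPD1. LAMP1, the main structural glycoprotein of that membrane, stood at 245 CPM in siSMPD1 and 127 CPM in control_SMPD1, 1.93-fold higher (95% counting interval 1.84 to 2.03). LAMP2, its paralog, whose LAMP2A isoform serves chaperone-mediated autophagy, stood at 130 CPM in siSMPD1 and 80.2 CPM in control_SMPD1, 1.62-fold higher (1.52 to 1.73). Both were also at least 1.5-fold higher in siSMPD1 than in control_GPR64, with log2 ratios of 0.67 and 1.17. The third paralog lay the other way. LAMP3, an inducible member known from mature dendritic cells and from stress responses, was at 0.795 CPM (15 counts) in siSMPD1 and 4.22 CPM (81 counts) in control_SMPD1, 5.17-fold lower (3.03 to 9.91). ATF4, the stress factor to which LAMP3 induction has been linked, was at 322 CPM in siSMPD1 and 415 CPM in control_SMPD1, and its part in the LAMP3 difference was not tested.

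Of the other membrane genes, CLN3, mutated in juvenile Batten disease, was 1.43-fold higher (1.27 to 1.6), at 38.3 CPM in siSMPD1 and 26.9 CPM in control_SMPD1. CD63, a tetraspanin of late endosomes and exosomes, was 1.34-fold higher (1.28 to 1.4), and MCOLN1, the TRPML1 calcium channel, 1.29-fold higher (1.09 to 1.52). Against control_GPR64, CD63 was instead 1.28-fold lower in siSMPD1 (1.19 to 1.38). The chloride-proton exchanger gene CLCN7 was at 1.15-fold (1.06 to 1.24) and the glucocerebrosidase receptor gene SCARB2 at 1.09-fold (1.02 to 1.16). NPC1, the membrane exporter of cholesterol, was 1.1-fold lower (1.03 to 1.17), at 96.7 CPM in siSMPD1 and 106 CPM in control_SMPD1. Against control_GPR64, NPC1 was instead 1.31-fold higher in siSMPD1 (1.14 to 1.52). GPNMB had 54 counts in siSMPD1 and 75 in control_SMPD1, and its interval included equality.

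All 8 glycosidases and other luminal proteins had log2 ratios above 0 in siSMPD1, from 0.03 to 0.53 with a median of 0.32, and 5 had intervals above equality. LIPA, lysosomal acid lipase, which frees cholesterol from its esters, was at 157 CPM in siSMPD1 and 118 CPM in control_SMPD1, 1.33-fold higher (1.26 to 1.41). GAA, the glycogen-degrading glucosidase deficient in Pompe disease, was 1.45-fold higher (1.11 to 1.9), at 7.31 CPM in siSMPD1 and 5.05 CPM in control_SMPD1. The heparan sulfate enzymes SGSH and NAGLU were each 1.31-fold higher (1.15 to 1.49 and 1.12 to 1.54). NPC2, which hands cholesterol to NPC1, was 1.19-fold higher (1.1 to 1.3). GUSB, FUCA1 and MANBA lay between 1.02-fold and 1.07-fold, with intervals that included equality. All 8 also had a log2 ratio above 0 in siSMPD1 when set against control_GPR64, except GAA at -1.07.

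Proteases were split in siSMPD1. CTSA, the carboxypeptidase that protects sialidase and beta-galactosidase, was at 100 CPM in siSMPD1 and 69.6 CPM in control_SMPD1, 1.44-fold higher (1.34 to 1.55). CTSD, the main aspartic protease, was at 310 CPM in siSMPD1 and 260 CPM in control_SMPD1, 1.19-fold higher (1.15 to 1.24). The cysteine and carboxypeptidase gene CTSZ was 1.86-fold higher (1.42 to 2.45) and CTSF 1.69-fold higher (1.25 to 2.3), both under 10 CPM. CTSB stood at 201 CPM in both libraries, and TPP1, the tripeptidyl peptidase lost in late-infantile Batten disease, at 139 CPM in both. CTSK, CTSS and CTSH had intervals that included equality, and CTSH was at 18 counts in siSMPD1 and 25 in control_SMPD1.

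Pump subunits differed in direction in siSMPD1. ATP6V0D1, a subunit of the membrane sector, was 1.44-fold higher (1.32 to 1.57), and ATP6AP1, an accessory subunit needed for pump assembly, 1.34-fold higher (1.27 to 1.42). ATP6V1A, the catalytic subunit of the cytosolic sector, was 1.27-fold lower (1.19 to 1.36), at 81.3 CPM in siSMPD1 and 103 CPM in control_SMPD1. ATP6V1B2 and ATP6V1H had ratios of 1.03-fold, lower for ATP6V1B2 and higher for ATP6V1H, and intervals that included equality.

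The transcription factors themselves were not higher. TFEB was at 3.97 CPM in siSMPD1 and 4.01 CPM in control_SMPD1, a ratio with an interval of 0.724 to 1.4. TFE3 was at 65.2 CPM in siSMPD1 and 78.4 CPM in control_SMPD1, 1.2-fold lower (1.12 to 1.3). FLCN, the folliculin gene, whose product lets RagC and RagD bring TFEB and TFE3 to mTORC1, was 1.25-fold lower (1.13 to 1.38), at 38.4 CPM in siSMPD1 and 47.9 CPM in control_SMPD1. Against control_GPR64, FLCN was instead 1.38-fold higher in siSMPD1 (1.1 to 1.76). RRAGD was at 1.12-fold higher with an interval of 0.982 to 1.29. MITF had 9 counts in siSMPD1 and 5 in control_SMPD1. TFE3 mRNA exceeded TFEB and MITF mRNA in every library also per length: divided by merged exon length in kilobases (GENCODE 29, GRCh38), TFE3 was at 15.2 CPM per kb in siSMPD1 and 18.3 in control_SMPD1, against 0.704 and 0.710 for TFEB. mRNA levels say nothing of where the proteins sit in the cell.

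**Figure D3:**
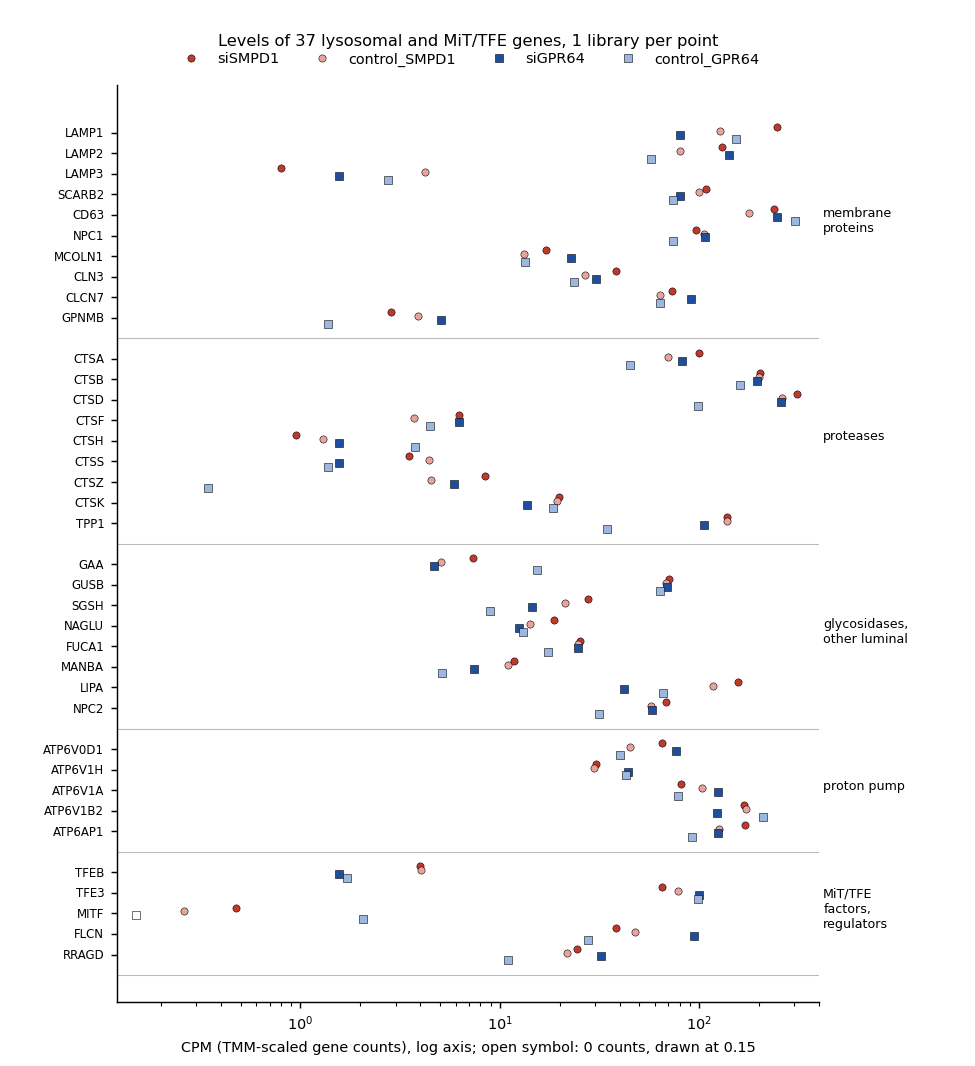
Level of each of the 37 genes in each library, in CPM on a log axis, 1 point a library, grouped by role; the open symbol marks MITF in siGPR64, with 0 counts. LAMP1 has its highest level in siSMPD1 and its lowest in siGPR64, and CTSD and TPP1 are lowest in control_GPR64.

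Read against the promoter windows, the small ratios in siSMPD1 divided by E-box content. This split was made after the ratios were known. All 10 genes with a core had a log2 ratio above 0, from 0.20 (CLCN7) to 0.95 (LAMP1), with a median of 0.52. Of the 14 measured genes with a window but no core, 7 had a ratio above 0 and the median was 0.01. Among genes outside these 37, 532 of 1142 measured genes with a core were above 0 in this comparison (46.6%), against 49.3% of 7751 without one. In the other comparisons of a knockdown the core went with more ratios above 0, at 56.5% with and 49.7% without a core for siGPR64 over control_GPR64, 53.0% and 47.4% for siGPR64 over control_SMPD1, and 54.4% and 50.7% for siSMPD1 over control_GPR64. Set against control_GPR64, the median in siSMPD1 was 0.58 for the genes with a core and 0.54 for those without, so for siSMPD1 the split was seen against its paired control alone. For siGPR64 the medians were 0.50 with a core and 0.43 without against control_GPR64, and 0.36 and 0.02 against control_SMPD1. For control_GPR64 over control_SMPD1 they were 0.00 and -0.53. The splits that are visible thus all have control_SMPD1 as their denominator, a library they share. The 12 genes for which no window was read, LAMP2 and CTSB among them, are not in these counts. Whether they hold a core is thus not known. Their log2 ratios in siSMPD1 over control_SMPD1 ran from -2.37 (LAMP3) to 0.70 (LAMP2).

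The second question was how the same genes differed when GPR64 was silenced. More of them passed the limits here, in a pair sequenced at lower depth in which more of all genes passed too. In siGPR64, 26 of the 37 genes had a log2 ratio above 0 (70.3%, against 51.1% of all measured genes), with a median of 0.43 against 0.01 over all 12830. By the 2-fold rule 7 were higher (18.9%, against 6.56% of all genes) and 2 lower (5.41%, against 5.18%). With 1.5-fold as the limit, 12 were higher (32.4%, against 13.2% of all genes) and 5 lower (13.5%, against 11.3%). The interval lay above equality for 16 genes and below it for 6, where 22.2% and 20.2% of all genes did so. The genes higher by 2-fold were LAMP2, GPNMB, CTSD, CTSZ, TPP1, FLCN and RRAGD, and the lower ones GAA and MITF. CTSZ, at under 1 CPM in control_GPR64, and MITF, at 0 in siGPR64, counted as measured only through the library where each was higher, and thus had to differ. The control library matters for this count. Set against control_SMPD1, no gene in siGPR64 was 2-fold higher (6.18% of all genes were) and 3 were 2-fold lower (LAMP3, CTSS and LIPA; 5.25% of all genes). Against that library 8 of 36 passed 1.5-fold in either direction (24.8% of all genes), and the median was 0.02.

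**Figure D4:**
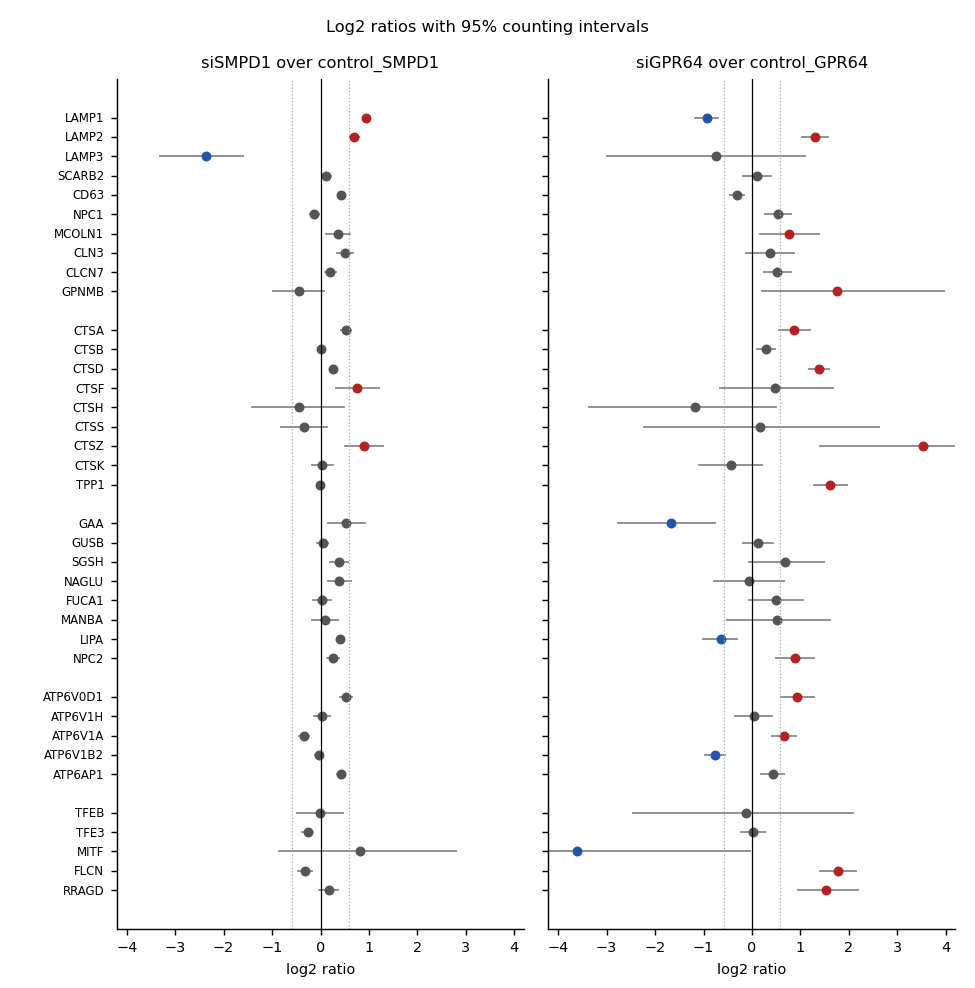
Log2 ratio of each gene (point) with its 95% counting interval (line, cut at the panel edges), for siSMPD1 over control_SMPD1 and siGPR64 over control_GPR64; red and blue mark genes at least 1.5-fold higher or lower (dotted lines) with an interval that excludes equality. LAMP1 is higher in the first comparison and lower in the second, LAMP2 is higher in both, and intervals are wider in the shallower GPR64 pair.

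The TFEB regulators FLCN and RRAGD were higher in siGPR64 than in either scrambled library. A list of 31 further genes of nutrient sensing and TFEB control was split against control_GPR64. With 1.5-fold as the limit, 5 of them were higher and 6 lower. FLCN was at 94.8 CPM in siGPR64 and 27.7 CPM in control_GPR64, 3.4-fold higher (2.65 to 4.45). RRAGD, the Rag GTPase that is itself a known target of MiT/TFE factors, was at 32.1 CPM in siGPR64 and 11.0 CPM in control_GPR64, 2.9-fold higher (1.93 to 4.56). In both genes siGPR64 was the highest of the 4 libraries. FLCN was also higher against control_SMPD1, with a log2 ratio of 0.98, and RRAGD less so, at 0.57. Among related genes, RRAGC, partner of RRAGA and RRAGB and also a MiT/TFE target, was at 42.7 CPM in siGPR64 and 13.7 CPM in control_GPR64, 3.09-fold higher (2.15 to 4.6), with a log2 ratio of 0.99 against control_SMPD1. TFEC, the fourth MiT/TFE factor, was at 15.7 CPM in siGPR64 and 2.74 CPM in control_GPR64, 5.42-fold higher (2.64 to 14.1).

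The factors TFEB and TFE3 did not share this. TFE3 was at 99.5 CPM in siGPR64 and 98.7 CPM in control_GPR64, with an interval of 0.849 to 1.2. TFEB had 4 counts in siGPR64 and 5 in control_GPR64, too few to place within 2-fold. MITF had 0 counts in siGPR64, with an upper Poisson limit of 1.45 CPM, and 6 counts (2.06 CPM) in control_GPR64. With the 0 set to 3 counts in that library (1.18 CPM), the limit for MITF was 1.75-fold lower. The limit of its 95% counting interval nearest equality was 1.03-fold. Its fitted log2 ratio was -3.61 with a prior of 0.5 count and -1.93 with a prior of 2, so its place among the genes lower by 2-fold rests on a fitted value and is not reached at either limit. MITF is the master factor of melanocytes, and the 6 melanocyte markers summed to 1.57 CPM in siGPR64 and 5.48 CPM in control_GPR64, with MLANA, TYR, DCT and SOX10 at 0 counts in all libraries and TYRP1 at 0.392 CPM in siGPR64 and 3.43 CPM in control_GPR64; their part in the MITF value was not tested.

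LAMP1 and LAMP2 parted in siGPR64. LAMP1 was at 80.3 CPM in siGPR64 and 154 CPM in control_GPR64, 1.91-fold lower (1.62 to 2.27), which is close in size and opposite in direction to its value in siSMPD1. LAMP2 was at 141 CPM in siGPR64 and 57.5 CPM in control_GPR64, 2.45-fold higher (2.03 to 2.96). Both directions held against control_SMPD1, with log2 ratios of -0.66 for LAMP1 and 0.81 for LAMP2. LAMP1 thus lay above both scrambled libraries in siSMPD1 and below both in siGPR64, and LAMP2 above both in each knockdown. LAMP3, at 4 counts in siGPR64 and 8 in control_GPR64, had an interval that included equality.

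The other membrane genes were mixed in siGPR64. MCOLN1 was 1.69-fold higher (1.11 to 2.62), at 22.7 CPM in siGPR64 and 13.4 CPM in control_GPR64, and higher against control_SMPD1 as well, with a log2 ratio of 0.78. NPC1 and CLCN7 were 1.45-fold (1.21 to 1.74) and 1.44-fold higher (1.18 to 1.76). GPNMB, a glycoprotein induced in lysosomal storage, was 3.4-fold higher (1.15 to 15.6) on 13 counts in siGPR64 and 4 in control_GPR64. CD63 was 1.24-fold lower (1.12 to 1.37), at 246 CPM in siGPR64 and 305 CPM in control_GPR64. Against control_SMPD1, CD63 was instead 1.39-fold higher in siGPR64 (1.27 to 1.51). CLN3 and SCARB2 had intervals that included equality.

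By the rule with 1.5-fold as the limit, 4 of the 9 proteases were higher in siGPR64 and none lower. Of all genes, 13.2% were higher and 11.3% lower. CTSZ, among the 4, counted as measured through siGPR64 alone and had to be higher. For each of the 4 genes, control_GPR64 held the lowest level of all 4 libraries. CTSD was at 259 CPM in siGPR64 and 99 CPM in control_GPR64, 2.61-fold higher (2.27 to 3.01). TPP1 was at 105 CPM in siGPR64 and 34.6 CPM in control_GPR64, 3.04-fold higher (2.41 to 3.87). In control_SMPD1 the same genes stood at 260 CPM for CTSD and 139 CPM for TPP1, so against that library the log2 ratios of siGPR64 were -0.01 and -0.40. CTSA was 1.83-fold higher (1.47 to 2.3), with a log2 ratio of 0.24 against control_SMPD1. CTSB was 1.22-fold higher (1.08 to 1.39). CTSZ was 11.5-fold higher with an interval of 2.64 to 722, on 15 counts in siGPR64 and 1 in control_GPR64. CTSF, CTSH, CTSS and CTSK had intervals that included equality, with 4 counts or fewer in a library for CTSH and CTSS.

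**Figure D5:**
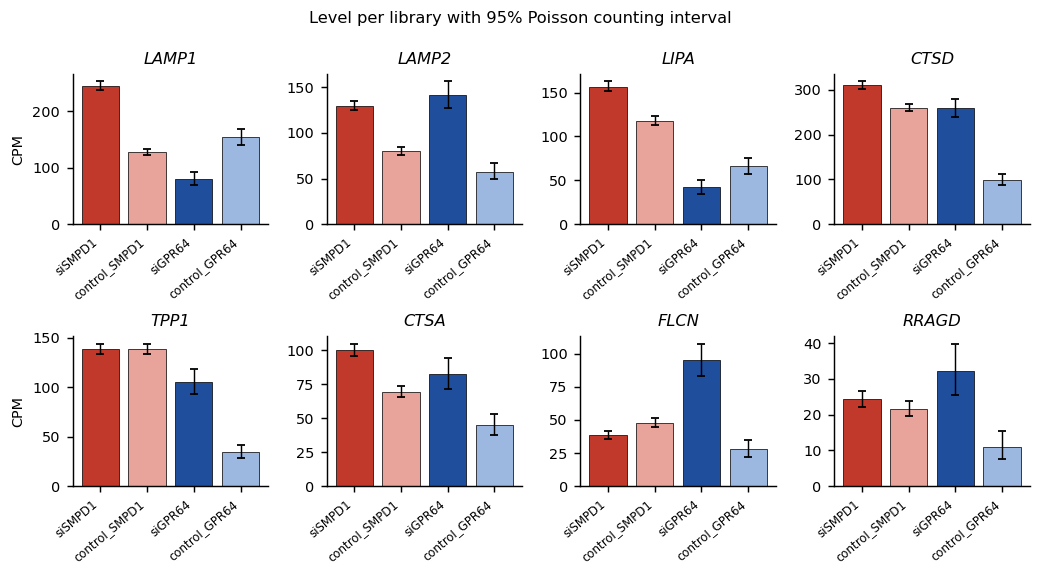
Level in CPM (bars) of 8 genes in siSMPD1, control_SMPD1, siGPR64 and control_GPR64, 1 library each, with 95% Poisson intervals that cover counting error only. For CTSD and TPP1 the control_GPR64 library is the low one, at 99 and 34.6 CPM, while for FLCN the siGPR64 library is the high one, at 94.8 CPM.

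The luminal genes were mixed in siGPR64. NPC2 was 1.85-fold higher (1.42 to 2.43), at 58.4 CPM in siGPR64 and 31.5 CPM in control_GPR64, but level with control_SMPD1 at 57.3 CPM. LIPA was at 41.9 CPM in siGPR64 and 65.8 CPM in control_GPR64, 1.57-fold lower (1.23 to 2.01), and lower still against control_SMPD1, with a log2 ratio of -1.49. GAA was at 4.7 CPM (12 counts) in siGPR64 and 15.4 CPM (45 counts) in control_GPR64, 3.19-fold lower (1.71 to 6.81), with a log2 ratio of -0.10 against control_SMPD1. GUSB, SGSH, NAGLU, FUCA1 and MANBA had intervals that included equality.

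Pump subunits again differed among themselves. ATP6V0D1 was at 76.8 CPM in siGPR64 and 40.1 CPM in control_GPR64, 1.91-fold higher (1.52 to 2.43), with a log2 ratio of 0.76 against control_SMPD1. ATP6V1A was 1.57-fold higher (1.33 to 1.88) and ATP6AP1 1.35-fold higher (1.14 to 1.59). ATP6V1B2, which pairs with ATP6V1A in the catalytic ring, was at 123 CPM in siGPR64 and 209 CPM in control_GPR64, 1.7-fold lower (1.48 to 1.95). ATP6V1H, a regulatory subunit, lay at 1.02-fold (0.787 to 1.33).

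The scrambled libraries themselves differed for these genes, which bears on the ratios of both pairs. In control_GPR64, 27 of the 37 genes were below control_SMPD1 and 10 above it (27.0%, against 49.1% of all genes), and the median log2 ratio was -0.43, against -0.01 over all 12798 measured genes. By the 2-fold rule 7 were lower (18.9%, against 8.33% of all genes) and 3 higher (8.11%, against 7.02%), and with 1.5-fold as the limit 12 lower (16.6% of all genes) and 4 higher (14.6%). The interval lay below equality for 19 and above it for 8 (29.4% and 27.9% of all genes). CTSZ and MITF again counted as measured through 1 library alone. The median was -0.30 for membrane proteins, -0.63 for proteases, -0.67 for luminal proteins, -0.17 for pump genes and -0.79 for MiT/TFE factors and regulators. TPP1 stood at 34.6 CPM in control_GPR64 and 139 CPM in control_SMPD1, a log2 ratio of -2.0, and CTSD at -1.39. Depth also differs, at 2882854 counts in control_GPR64 and 19614913 in control_SMPD1, and depth and culture cannot be told apart with 1 control in each pair.

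Genes that lay at least 1.5-fold outside both scrambled libraries were few in either knockdown. In siSMPD1 these were LAMP1, LAMP2 and CTSZ on the high side (3 of 36, 8.33%, against 4.26% of all genes) and LAMP3 on the low side (2.78%, against 2.77%). In siGPR64 they were LAMP2, MCOLN1, ATP6V0D1 and FLCN on the high side (4 of 36, 11.1%, against 6.31% of all genes) and LAMP1, LAMP3 and LIPA on the low side (8.33%, against 6.43%). No interval was required in these counts. In siSMPD1, LAMP3 was under 1 CPM and counted as measured through the scrambled libraries alone, so it had to be lower. CTSZ was under 1 CPM in control_GPR64, so against that library it had to be higher. Set each against its own control, the 2 knockdowns share no library. Of the 36 genes measured in both pairs, 19 were above 0 in both (52.8%, against 27.1% of all genes). Below 0 in both were 4 (11.1%, against 26.6%). With 69.4% and 70.3% of the genes above 0 in the single pairs, many would be above 0 in both without any link between the pairs. These shares thus add no separate evidence to the counts of each pair. With both scrambled libraries as replicates of 1 group, edgeR's quasi-likelihood test called 0 of the 37 genes at an adjusted p under 0.05 in either knockdown, and DESeq2 also called 0. At an unadjusted p under 0.05, edgeR listed LAMP2 in siSMPD1 (adjusted p = 0.999) and LAMP2, FLCN and LIPA in siGPR64 (adjusted p = 1.0 after rounding), and DESeq2 0 and 3 genes.

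Other genes of the pathway were read from 6 lists that hold none of the 37. Their counts in siSMPD1 stand beside 2.49% of all genes higher and 1.11% lower by the 2-fold rule, and 49.5% above 0. In siSMPD1 none of 16 measured further V-ATPase genes passed the 2-fold rule, with a median of 0.14. TCIRG1, the a3 subunit of osteoclasts, was 1.72-fold higher (1.54 to 1.92), and ATP6V1C1 1.85-fold lower (1.7 to 2.02). Of 29 further membrane genes, 25 had a log2 ratio above 0 and the median was 0.20. LAPTM4A, a transporter-like protein of late endosomes, was the single one past 2-fold and was lower, at 96.8 CPM in siSMPD1 and 241 CPM in control_SMPD1 (2.49-fold, 2.36 to 2.63), and its log2 ratio to control_GPR64 was -1.51. None of 30 further hydrolases passed 2-fold, with a median of 0.04. Of 31 genes of nutrient sensing, 1 passed 2-fold: FNIP2, the partner of folliculin, was at 11.4 CPM in siSMPD1 and 25.8 CPM in control_SMPD1, 2.25-fold lower (1.91 to 2.65). None of 13 genes for mannose 6-phosphate tagging or of 13 for lysosome fusion passed 2-fold, with medians of 0.05 and -0.02.

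In the GPR64 pair the shares of all genes past 2-fold were 6.56% higher and 5.18% lower, and the counts of 2 in 31 below are near these. In siGPR64, 3 of 16 further V-ATPase genes were higher by 2-fold and none lower, with a median of 0.18. TCIRG1 was 4.24-fold (2.59 to 7.61), ATP6V1C1 2.39-fold (1.84 to 3.15) and ATP6V0E1 2.06-fold higher (1.66 to 2.58). Against control_SMPD1 their log2 ratios were 0.04, -0.27 and 0.80. Of 31 further hydrolases 2 were higher and 2 lower, with a median of 0.35. IDS, the iduronate sulfatase of Hunter syndrome, was at 241 CPM in siGPR64 and 73.3 CPM in control_GPR64, 3.28-fold higher (2.81 to 3.86), and NEU1, the sialidase, 2.26-fold higher (1.76 to 2.92). AGA, which splits glycoasparagines, was 2.87-fold lower (2.09 to 4.07) and CTSO 2.99-fold lower (1.31 to 8.55). Against control_SMPD1 none of these 4 hydrolases reached 2-fold, with log2 ratios of 0.16 for IDS, 0.80 for NEU1, -0.68 for AGA and 0.32 for CTSO, which turned direction. Of 29 membrane genes 4 were higher, among them LAPTM4B, OSTM1 and SLC38A7 at 2.07-fold, 2.43-fold and 2.5-fold, and 2 lower, with the potassium channel gene TMEM175 4.94-fold lower (2.19 to 15.2). Against control_SMPD1 their log2 ratios were 0.67 for LAPTM4B, 0.99 for OSTM1, 1.12 for SLC38A7 and -0.76 for TMEM175. Of 31 nutrient-sensing genes 2 were higher, RRAGC and TFEC, and 2 lower, MIOS at 2.09-fold (1.56 to 2.85) and ZKSCAN3, a repressor of lysosomal and autophagy genes, at 2.77-fold (1.46 to 5.96). MIOS was level with control_SMPD1, at a log2 ratio of 0.03, and ZKSCAN3 was at -1.07, while TFEC was at 0.82. VPS18 and PLEKHM1, which act in lysosome fusion, were the 2 of 12 measured genes that were higher, at 2.11-fold and 2.09-fold, with log2 ratios of 0.93 and 0.62 against control_SMPD1. None of 13 genes of mannose 6-phosphate tagging passed 2-fold, and the receptors IGF2R and M6PR had the largest log2 ratios above 0, at 0.79 and 0.71, and 0.19 and 0.77 against control_SMPD1.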

How the data were processed

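Each library's table, as the authors deposited it, holds raw counts of reads by gene symbol, from paired-end libraries of ribosome-depleted total RNA. Tools named in the submitters' processing notes are bcl2fastq, TopHat2, SAMtools and HTSeq, with hg19 as the build. Their versions, the annotation, the strandedness and how HTSeq was set are not given here by any source used. MCOLN1 shares exon sequence with PNPLA6 on its own strand, and CTSA, SGSH, NPC2 and LIPA with PLTP, SLC26A11, ISCA2 and IFIT2 on the other, and reads inside a shared stretch may be counted for either gene or dropped, depending on the strand setting and counting mode. The HTSeq summary lines (36.5% to 44.8% of entries) were left out.

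Counts were scaled with TMM factors (edgeR 4.0.16, R 4.3.3). A log2 ratio used a prior of 0.5 count, and fold values are its size. Its 95% interval comes from an exact (Clopper-Pearson) interval for how reads split between both libraries, and CPM intervals are exact Poisson. Both cover counting error only, since no molecular identifiers separate reads from molecules. A gene passed the rule of size with a mean of at least 1 CPM, a ratio of at least 2-fold (or 1.5-fold) and an interval that excludes equality. The procedure was tested on counts simulated with counting error only, the error its intervals assume. That test holds no spread between cultures and cannot show how the calls fare under it. Promoters and exon lengths came from RefSeq (GRCh38.p14) and GENCODE 29. Genes and lists were chosen with earlier results of these data known. Of other lists, up to 4 genes past 2-fold are named, otherwise up to 2 by size. Of the osteoclast markers, which CTSK and TCIRG1 accompany in bone, the sum was 1.98 to 4.7 CPM. Alternatives were DESeq2 1.42.0 size factors, total counts, upper-quartile factors, other filters and priors, the other control, and pooled-control fits.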

Additional observations from a re-analysis of the deposited data

How the results depend on the processing

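Settings tried were DESeq2 size factors, total counts, upper-quartile factors, no filter on low counts and a prior of 2 counts. Under each of them, all 9 counts and medians counted as unchanged. For a count this meant within 1.5 times its value. For a median it meant between the median lower and median upper interval limits of the genes, which is a loose limit. No gene past 1.5-fold changed sign under these settings. The control library had more weight. Against the other scrambled library, siSMPD1 had 14 genes past 2-fold (10 higher, 4 lower), 19 past 1.5-fold and a median of 0.53. Of the 14, CTSZ, LAMP3, CTSH and MITF counted as measured through 1 library alone, which set their direction. Against its other scrambled library, siGPR64 had 3 past 2-fold, 8 past 1.5-fold and a median of 0.02. Against the other control, TPP1 in siGPR64 reversed, to -0.40, as did SMPD1 in siGPR64 (-0.84) and in siSMPD1 (0.80). Some genes under 1.5-fold in their own pair also turned, with intervals on opposite sides of equality under the 2 controls. These were CD63, NPC1, GAA and FLCN in siSMPD1, and CD63 in siGPR64. CTSD in siGPR64 became level, at -0.0058 with a log2 interval of -0.125 to 0.111. The cause was not tested. With a mean of at least 10 CPM, which drops low genes such as LAMP3 by construction, siSMPD1 had 0 genes past 2-fold and 2 past 1.5-fold, and control_GPR64 over control_SMPD1 had 4 and 10. With at least 10 counts in each library, an alternative chosen after seeing the data, the controls had 6 past 2-fold, and siGPR64 also had 6, without GPNMB, CTSZ and MITF. The pooled edgeR and DESeq2 fits called 0 genes in siSMPD1 and 0 in siGPR64. No paired analysis was possible because each group is 1 library. At the depth of the GPR64 pair, genes with under 10 counts, TFEB, LAMP3, CTSH and CTSS among them, could not be placed within 2-fold.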
